A study of Mus musculus with 18 samples.

Results

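The endophilin family in mouse B cells was described through its 5 genes, out of 51912 genes in the table. They are the 3 endophilin A genes, Sh3gl1 (endophilin A2), Sh3gl2 (A1) and Sh3gl3 (A3), and the 2 endophilin B genes, Sh3glb1 (B1) and Sh3glb2 (B2). Members were found by matching each Ensembl identifier to a symbol in GENCODE M21 on GRCm38. The questions were how much of each gene B cells transcribe in 3 states, and whether another member of the family rises where Sh3gl1 is deleted.

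Endophilins carry an N-BAR domain, a crescent-shaped helical dimer that binds and bends membranes, and an SH3 domain that recruits partners with proline-rich stretches. Endophilin A proteins bring dynamin, which cuts vesicle necks, and synaptojanin, a lipid phosphatase that helps remove the clathrin coat, to sites of endocytosis. A1 is best known from nerve terminals, A2 is found in most tissues, and A3 is known mainly from brain and testis. Endophilin B proteins act on internal membranes. B1, also called Bif-1, binds the apoptosis protein Bax and takes part in autophagy through UVRAG and Beclin 1, and B2 can pair with B1.

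The 18 libraries came from C57BL/6 mice, wild type (WT) or homozygous for a germline Sh3gl1 knockout (Sh3gl1-/-), with WT littermates as controls. Within each genotype, transitional B cells and follicular B cells were sequenced untreated, and follicular cells were also sequenced after 14 h with CD40L, the T-cell ligand of CD40, giving 6 groups of 3 biological replicates. The knockout is in the whole animal, so all other cells of the mouse also lacked endophilin A2. Follicular cells cultured without CD40L are not among the groups, so the effects of culture and of CD40L cannot be told apart. The labels give no age for the mice.

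Total expected counts per library ranged from 12404688 to 18366078. The summed level of 7 B-cell markers was at least 8666 CPM (counts scaled to library size) in every library. Cd93, a transitional-cell marker, lay between 57.4 and 72.3 CPM in transitional WT cells and between 11.8 and 14.4 CPM in follicular WT cells. The 6 listed genes induced by CD40 summed to between 127 and 165 CPM ex vivo and to between 1108 and 1895 CPM after CD40L. Several libraries also held transcripts of other cells. In transitional cells, 4 erythroid genes summed to 1275 to 2191 CPM in WT and 2458 to 5291 CPM in Sh3gl1-/- libraries, and 4 plasma-cell genes to 428 to 669 CPM and 1085 to 4565 CPM. Jchain made up most of the plasma-cell sum there, at 406 to 649 CPM in WT and 1065 to 4516 CPM in Sh3gl1-/- libraries. Its companions in the list, Sdc1, Prdm1 and Xbp1, each overlapped between genotypes in transitional cells. In follicular cells, 7 T-cell genes summed to 158 to 185 CPM in WT and 235 to 269 CPM in Sh3gl1-/- libraries, 10 neutrophil and monocyte genes to 153 to 234 CPM and 248 to 886 CPM, and the plasma-cell genes to 64.0 to 128 CPM and 143 to 177 CPM. Jchain was again most of the plasma-cell sum, at 44.6 to 100 CPM in WT and 114 to 145 CPM in Sh3gl1-/- follicular libraries. Xbp1 was also higher there without overlap, while Sdc1 and Prdm1 overlapped. After CD40L the neutrophil and monocyte genes summed to 14.6 to 42.7 CPM in WT and 51.0 to 191 CPM in Sh3gl1-/- libraries. None of these 6 pairs of groups overlapped, nor did the sums of 4 dendritic-cell genes in transitional cells (5.53 to 10.7 CPM in WT, 12.3 to 27.4 CPM in Sh3gl1-/- libraries). All other pairs of genotypes for these sums overlapped, as did those of 4 NK-cell genes in each state. Some single genes did not. In transitional cells Cd3d (7.45 to 13.6 CPM in WT, 14.4 to 23.2 in Sh3gl1-/-), Cd3e, Cd3g, Cd4 and Cd28 were higher without overlap. Lck, the largest T-cell gene, was lower (104 to 118 against 89.1 to 98.4 CPM), and Cd8a overlapped. S100a8 (15.0 to 23.5 against 34.8 to 159 CPM) and S100a9 were also higher, and others of their list overlapped. After CD40L Cd3d, Cd3e and Cd3g were higher without overlap, and other T-cell genes overlapped. The B-cell sum was lower in Sh3gl1-/- than in WT libraries, without overlap, in both follicular states. In the 3 CD40L-cultured WT libraries the neutrophil marker Ly6g had 0 counts, but S100a8 reached 15.9 CPM and Ngp 10.8 CPM. Of 4 dendritic-cell genes Itgax had 0 counts there, but Flt3 stood at 4.27 to 6.82 CPM and Xcr1 at 2.41 to 3.47 CPM. The part of such cells in the endophilin values was not tested.

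Transcripts of 3 of the 5 members were detected in all WT libraries, and the sequences around their start sites are shown because these 3 moved in different directions after CD40L. Each window runs from 150 bases before the RefSeq start site through 30 bases from it on, on the minus strand of GRCm38.p6, at chr17:56036608-56036787 for Sh3gl1, chr3:144720306-144720485 for Sh3glb1 and chr2:30359287-30359466 for Sh3glb2. Capitals mark an ETS site (CCGGAAGT) in Sh3gl1 and GC boxes (GGGCGG, or CCGCCC on the other strand) in the other two.
Sh3gl1: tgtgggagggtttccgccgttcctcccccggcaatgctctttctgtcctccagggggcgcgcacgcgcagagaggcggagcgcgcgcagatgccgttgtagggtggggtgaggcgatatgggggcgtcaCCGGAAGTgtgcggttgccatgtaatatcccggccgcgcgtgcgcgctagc
Sh3glb1: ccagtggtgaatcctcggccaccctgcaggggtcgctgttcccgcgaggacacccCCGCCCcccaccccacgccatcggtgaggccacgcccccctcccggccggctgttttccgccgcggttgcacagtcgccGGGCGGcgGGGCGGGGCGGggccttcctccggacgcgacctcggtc
Sh3glb2: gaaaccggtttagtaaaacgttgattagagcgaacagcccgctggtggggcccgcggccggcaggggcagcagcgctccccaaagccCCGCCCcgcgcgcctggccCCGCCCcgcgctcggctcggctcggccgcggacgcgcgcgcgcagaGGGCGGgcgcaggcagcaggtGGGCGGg

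Motifs were searched on both strands from 250 bases before to 50 bases after the start, in all 32851 RefSeq promoters of that length. Sh3gl1 held 1 ETS site, 21 bases before the start, and 0 GC boxes. Sh3glb1 held 4 GC boxes, of which the last 2 overlap, and 0 ETS sites. Sh3glb2 also held 4 GC boxes and 0 ETS sites. An ETS site of these letters was found in 3.89% of all promoters and a GC box in 35.7%. An E-box (CACGTG, 7.15% of promoters), a cAMP response element (TGACGTCA, 1.79%), part of an NRF1 site (TGCGCA, 7.76%) and an NF-kappaB consensus (4.51%) were found in none of these 3 windows. All 3 were rich in CpG, with 31, 29 and 33 CpG dinucleotides in 300 bases against a median of 7 over all promoters. These matches describe letters only, and binding was not measured.

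Sh3gl1 was the only endophilin A gene with more than 2 counts in any library. It lies on chromosome 17 (GRCm38, chr17:56016750-56036635, minus strand). In transitional WT cells its level was 25.1, 21.4 and 18.4 TPM (transcript abundance scaled for length and library), in follicular WT cells 20.6, 21.6 and 20.1 TPM, and in CD40L-cultured WT cells 29.7, 29.5 and 29.6 TPM. The CD40L-cultured libraries were all above the others and lay within 0.2 TPM of each other, while transitional and follicular libraries overlapped.

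Sh3gl2, at chr4:85205126-85639195 on the plus strand, had 0 counts in all 18 libraries. With 264260046 counts in all, a count of 0 allows up to 0.0114 CPM, taking 3 counts as the limit and covering counting error only. Sh3gl3, at chr7:82173840-82307419 on the plus strand, had 2 counts in follicular Sh3gl1-/- replicate 1 and 0 in the other 17 libraries. That is below the floor of 3 counts, which in a single library corresponds to 0.163 to 0.242 CPM. At this depth neither gene was detected in B cells of either genotype, and neither passed the filter on low counts in any comparison.

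**Figure D1:**
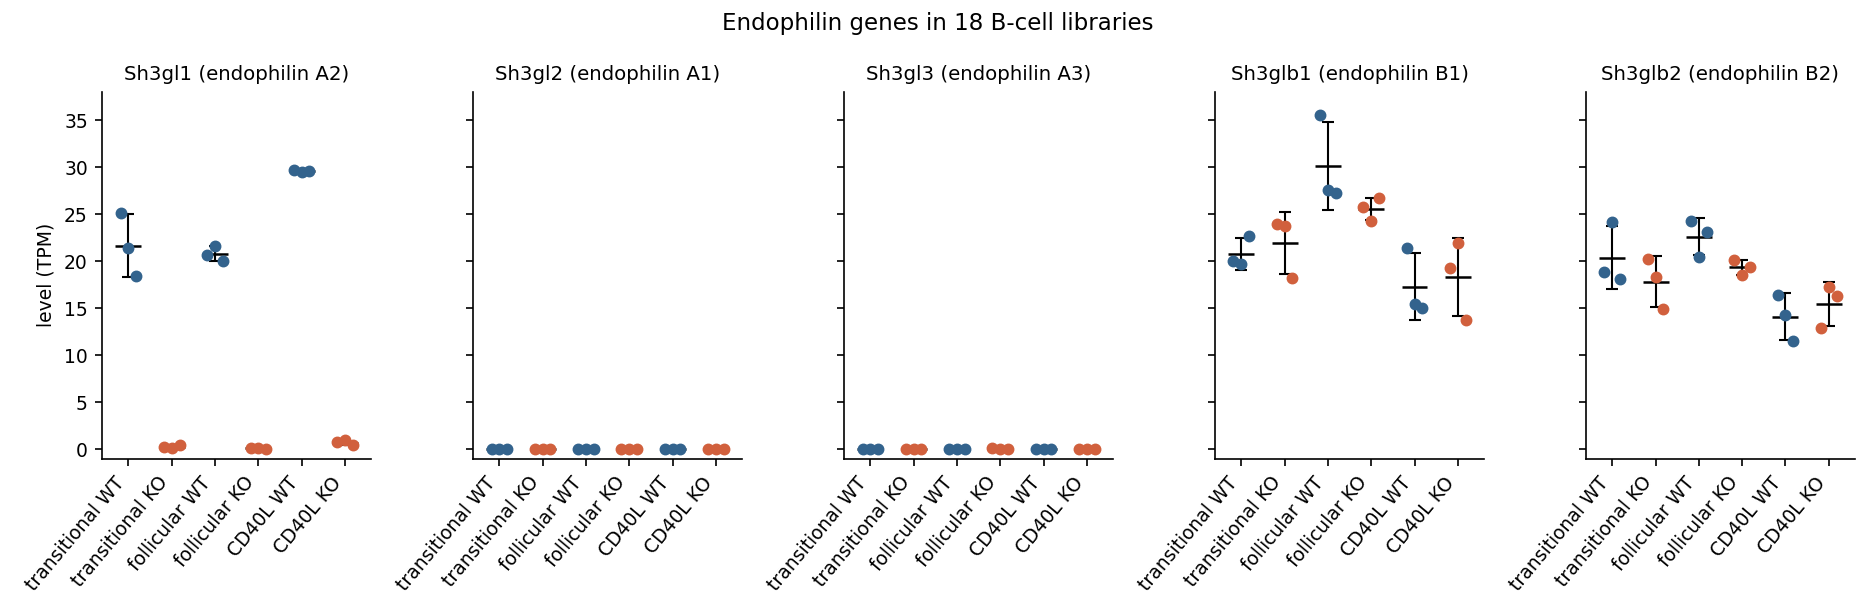
Level of the 5 endophilin genes in TPM (vertical axis) in each of the 18 libraries, by group (blue WT, orange Sh3gl1-/-, written KO on the axis); bars give the mean and SD of 3 replicates. Sh3gl1 is at 18.4 to 29.7 TPM in WT and below 1 TPM in Sh3gl1-/- libraries, Sh3gl2 and Sh3gl3 lie at or near 0, and both endophilin B genes were detected in every library.

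Both endophilin B genes were detected in every library at levels like those of Sh3gl1. Sh3glb1 (chr3:144683678-144720335, minus strand) stood at 20.0, 19.7 and 22.7 TPM in transitional WT cells, at 35.6, 27.5 and 27.3 TPM in follicular WT cells, and at 21.4, 15.5 and 15.0 TPM after CD40L. Follicular WT libraries were the highest and did not overlap either other state, while CD40L-cultured and transitional WT libraries overlapped. In Sh3gl1-/- cells it stood at 23.9, 23.8 and 18.2 TPM in transitional, 25.8, 24.3 and 26.7 TPM in follicular, and 19.3, 21.9 and 13.8 TPM in CD40L-cultured libraries. These follow the same order of states, with CD40L-cultured and transitional libraries again overlapping.

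Sh3glb2 (chr2:30344809-30359337, minus strand) stood at 18.9, 24.2 and 18.1 TPM in transitional WT, 24.3, 20.5 and 23.1 TPM in follicular WT, and 16.5, 14.3 and 11.5 TPM in CD40L-cultured WT libraries. The CD40L-cultured libraries were the lowest and did not overlap the other states. In Sh3gl1-/- cells the values were 20.3, 18.3 and 14.9 TPM, 20.1, 18.6 and 19.4 TPM, and 12.9, 17.3 and 16.3 TPM in the same order of states. Here the CD40L-cultured libraries were below the follicular ones but overlapped the transitional ones.

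Ordered by mean TPM over the 6 groups, Sh3glb1 ran from follicular WT (30.1 ± 4.73, SD, n = 3) through follicular Sh3gl1-/- (25.6 ± 1.199), transitional Sh3gl1-/- (21.96 ± 3.27), transitional WT (20.8 ± 1.69) and CD40L Sh3gl1-/- (18.3 ± 4.16) to CD40L WT (17.3 ± 3.55). In this order the first 2 steps were without overlap in TPM and the others overlapped. On the CPM scale all neighbours overlapped. For Sh3glb2 the order ran from follicular WT (22.6 ± 1.96) to CD40L WT (14.1 ± 2.48), every pair of neighbours overlapped, and the order between changed when medians or CPM were used. Sh3gl1 in WT cells ran from CD40L (29.6 ± 0.101) to transitional (21.7 ± 3.37) and follicular (20.8 ± 0.799), with no overlap at the first step and overlap at the second.

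Because TPM is per transcript length, the members can be compared within a library. In follicular WT cells Sh3gl1 stood at 0.580, 0.786 and 0.736 of the Sh3glb1 level, in transitional WT cells at 1.26, 1.09 and 0.810, and after CD40L at 1.39, 1.91 and 1.97. The ratio was below 1 in all follicular WT libraries and above 1 in all CD40L-cultured WT libraries, and the 3 states did not overlap (exact two-sided permutation p = 0.1 for each pair, the smallest that 3 against 3 can give). In CPM, a scale chosen after seeing the data that takes no account of length, the ratio was 0.867, 0.632 and 0.558 in transitional and 0.452, 0.585 and 0.490 in follicular WT libraries, which overlapped (exact permutation p = 0.2), while CD40L-cultured libraries still lay above both. Endophilin A2 made up 28.4% ± 2.72 of the summed endophilin TPM in follicular WT, 34.4% ± 4.31 in transitional WT and 48.8% ± 4.44 in CD40L-cultured WT cells (SD, n = 3). Sh3glb1 and Sh3glb2 kept closer to each other, with a mean ratio of Sh3glb1 to Sh3glb2 between 1.04 and 1.33 in the 3 WT states, and these states overlapped.

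**Figure D2:**
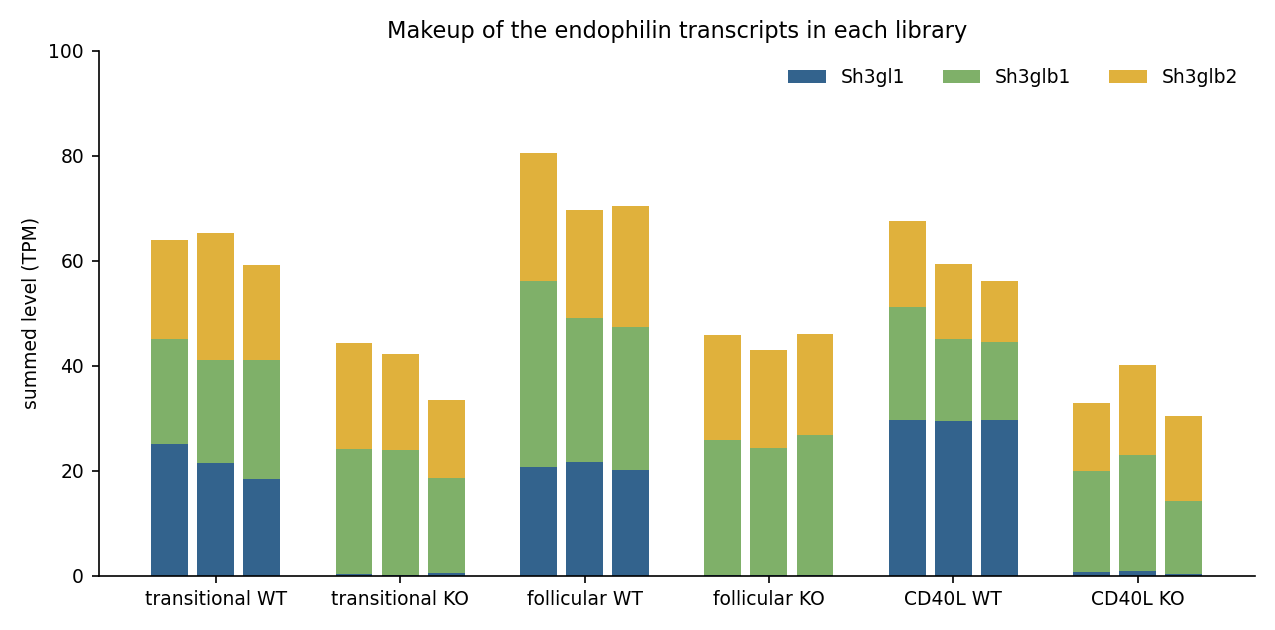
Summed endophilin level in TPM (vertical axis) in each library, 3 bars a group in replicate order (KO is Sh3gl1-/-), split into Sh3gl1, Sh3glb1 and Sh3glb2. The Sh3gl1 share is 28.4% in follicular WT and 48.8% in CD40L-cultured WT cells on average, and the bars of Sh3gl1-/- libraries are shorter than those of WT libraries in each state.

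The lengths behind these TPM values were not constant for the endophilin B genes. The effective length that each FPKM value implies was 1979 to 1981 bases for Sh3gl1, which has 1 transcript in the table. It ran from 2439 to 3409 bases for Sh3glb1, which has 6 transcripts, and from 1158 to 1522 bases for Sh3glb2, which has 14. Mean implied length of Sh3glb1 was 3052 bases in transitional WT, 2724 in follicular WT and 2520 in CD40L-cultured WT libraries. Transitional and CD40L-cultured WT libraries did not overlap (exact permutation p = 0.1), and no pair of genotypes within a state was apart. Differences of single genes between groups were tested on counts, ratios and sums of members on TPM, and levels of single transcripts were not analysed here.

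**Figure D3:**
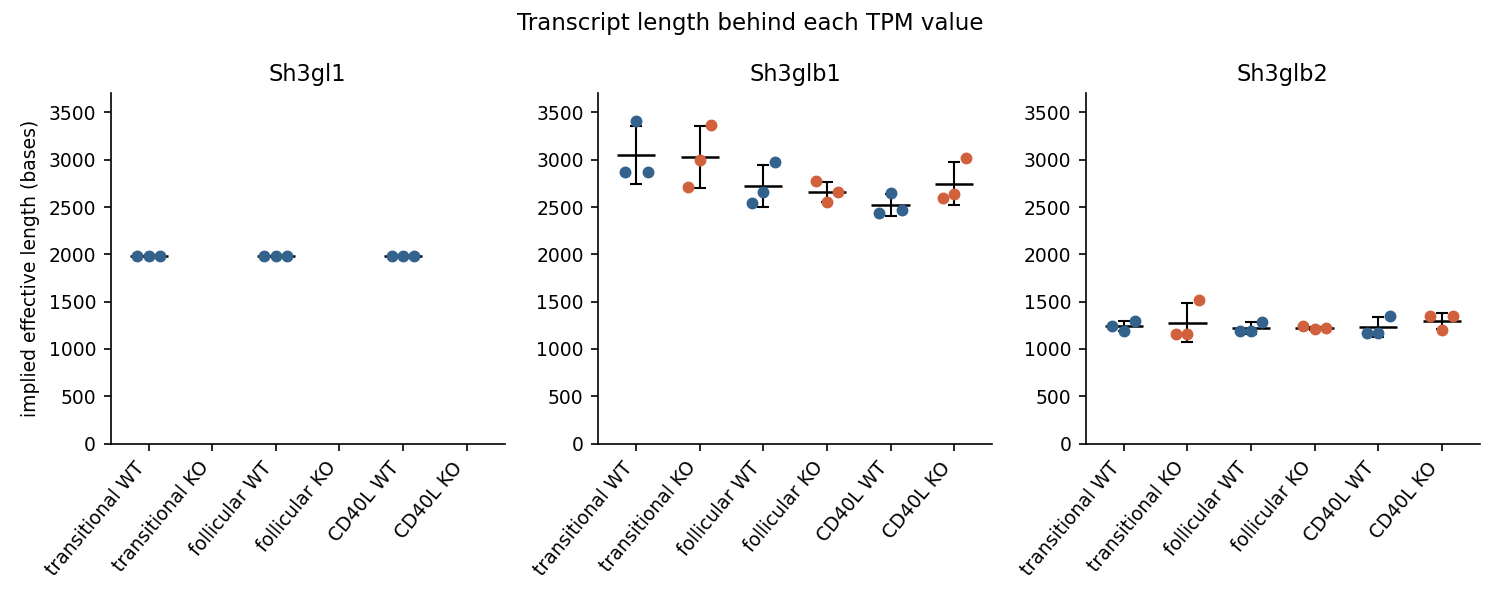
Effective transcript length in bases (vertical axis) implied by the FPKM value and count of each library with at least 100 counts of the gene, by group (blue WT, orange Sh3gl1-/-, written KO); bars give the mean and SD. Sh3gl1 is constant at 1979 to 1981 bases and is not given in Sh3gl1-/- cells, where its counts were too few, while Sh3glb1 varies from 2439 to 3409 bases.

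Sh3gl1, the targeted gene, checks the genotype labels. Its counts in WT libraries were 591, 467 and 377 in transitional, 528, 569 and 447 in follicular, and 839, 802 and 929 in CD40L-cultured cells. In Sh3gl1-/- libraries they were 7, 4 and 11, then 2, 3 and 1, then 20, 22 and 11. All 9 knockout libraries were far below all 9 WT libraries, as labelled. The summed counts of the knockout, relative to library size, were 1.34% of WT in transitional cells (95% exact interval 0.836 to 2.03, counting error only), 0.406% in follicular cells (0.149 to 0.886) and 2.22% after CD40L (1.66 to 2.91). The design made this difference, and it ranked first by p in each state (edgeR adjusted p = 3.8e-05, 6.2e-08 and 7.8e-05). The background of calls between genotypes was 3.73% of genes in transitional, 0.845% in follicular and 0.0227% in CD40L-cultured cells.

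Mpnd, a gene on the opposite strand at chr17:56005711-56016790, shares 41 bases with the end of Sh3gl1. Its expected counts ranged from 115 to 272 in WT and from 2 to 16 in Sh3gl1-/- libraries, with no overlap. The labels describe stranded libraries, but the strand setting of the counting step is not given in the sources used here, so reads in the shared bases cannot be assigned with certainty. The part of Mpnd reads in the Sh3gl1 counts was not tested. Every Sh3gl1-/- library thus also had few Mpnd counts. In all comparisons of genotypes here, effects of the loss of Sh3gl1 and of the low Mpnd level cannot be told apart.

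The few Sh3gl1 counts left in the knockout also differed between states. They were 1 to 3 counts in follicular cells ex vivo, 4 to 11 in transitional cells and 11 to 22 after CD40L. Scaled to library size, the transitional sum was 3.38 times the follicular one (95% exact interval 1.33 to 10.2, counting error only). Summed and scaled to library size, the CD40L-cultured libraries held 8.89 times the follicular level (95% exact interval 3.83 to 25.3, counting error only; edgeR adjusted p = 6.5e-05), in a comparison where 42.4% of genes passed. In WT cells the same step was 1.603-fold. The test of this difference between genotypes gave an adjusted p of 0.31. With the knockout ex vivo at or below 3 counts in each library, the fitted size of this difference depends on the prior count and is not interpreted.

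Neither endophilin B gene was called higher or lower in the absence of endophilin A2. In transitional cells Sh3glb1 was 1.09-fold of WT (95% interval 0.935 to 1.28; edgeR quasi-likelihood test, adjusted p = 0.50) and Sh3glb2 0.937-fold (0.756 to 1.16; adjusted p = 0.73). In follicular cells Sh3glb1 was 0.875-fold (0.729 to 1.05; adjusted p = 0.64) and Sh3glb2 0.896-fold (0.725 to 1.11; adjusted p = 0.78). After CD40L Sh3glb1 was 1.11-fold (0.814 to 1.502; adjusted p = 0.87) and Sh3glb2 1.12-fold (0.836 to 1.49; adjusted p = 0.85). The libraries of both genotypes overlapped in CPM in all 6 of these comparisons, none had an unadjusted p under 0.05, and DESeq2 called 0 of them. A p that misses the threshold does not show equal levels, but the intervals bound the change.

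Averaged over the 3 states in a fit of all 18 libraries, the narrowest estimate these data allow, Sh3glb1 was 1.01-fold of WT (0.892 to 1.15; edgeR adjusted p = 0.94) and Sh3glb2 0.972-fold (0.862 to 1.10; adjusted p = 0.84). A rise of Sh3glb1 above 1.15-fold or of Sh3glb2 above 1.10-fold lies outside these intervals. In this fit 3.83% of genes passed, Sh3gl1 among them and no other member. Libraries of a genotype with the same number were correlated between some states, so the fit may count them as more independent than they are. With counts summed over the states for each number, an alternative chosen after seeing the data, the log2 values were 0.01 for Sh3glb1 (adjusted p = 0.96) and -0.03 for Sh3glb2 (adjusted p = 0.89).

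The summed endophilin level was lower in Sh3gl1-/- cells in each state. It was 62.8 ± 3.19 TPM in WT and 40.0 ± 5.76 in Sh3gl1-/- transitional cells, 73.5 ± 6.07 and 45.0 ± 1.80 in follicular cells, and 61.0 ± 5.90 and 34.5 ± 5.07 after CD40L (SD, n = 3). No state overlapped between genotypes (exact permutation p = 0.1 each, the smallest possible), which the deletion itself fixes. The endophilin B genes alone summed to 41.2 ± 2.52 against 39.8 ± 5.89 TPM in transitional and 31.4 ± 5.82 against 33.8 ± 4.81 TPM in CD40L-cultured cells, WT first, with overlap. In follicular cells the sum was 52.7 ± 6.29 TPM in WT and 44.9 ± 1.79 TPM in Sh3gl1-/- cells, where the libraries did not overlap (exact permutation p = 0.1). In CPM this sum was 99.9, 80.0 and 93.8 in WT and 84.0, 71.2 and 86.1 in Sh3gl1-/- follicular libraries, which overlapped (exact permutation p = 0.3). These are shares of the transcripts pooled in each library, and in bulk samples fewer cells of a type and less RNA per cell cannot be told apart.

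**Figure D4:**
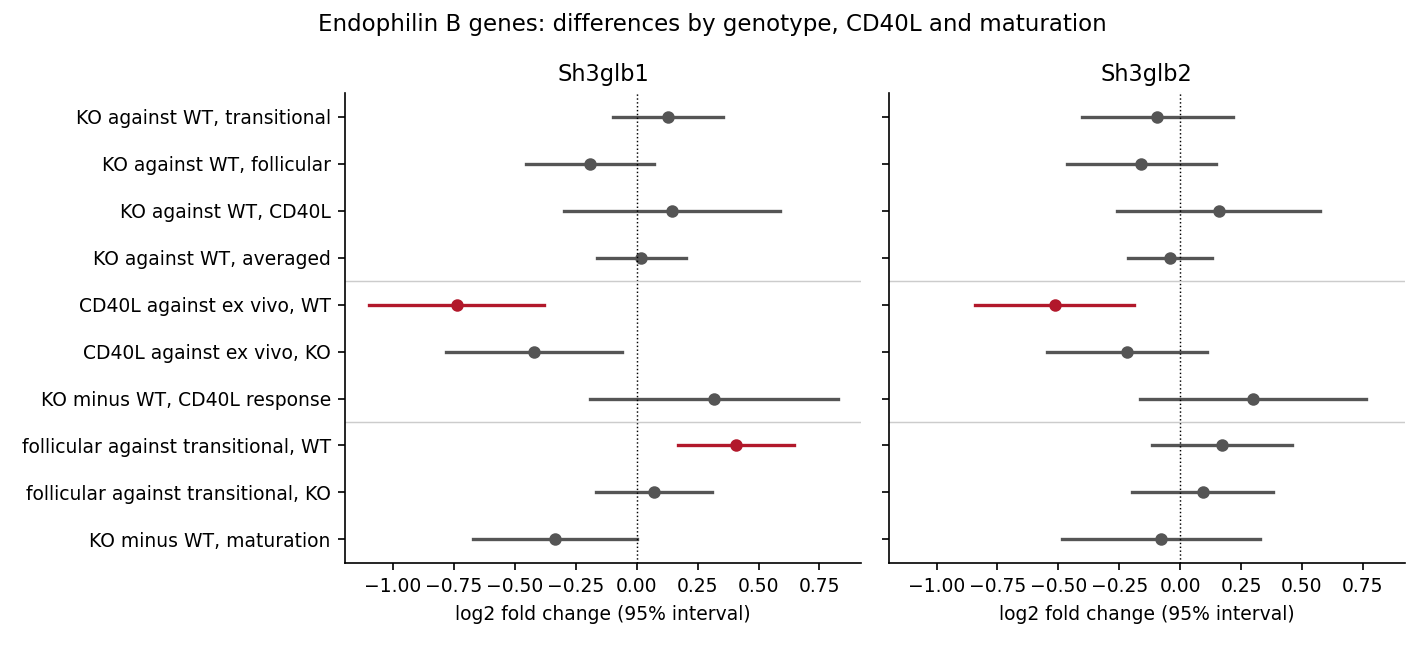
Log2 fold change (horizontal axis, point) with its 95% interval (line) of Sh3glb1 and Sh3glb2 in 10 comparisons, from edgeR (KO is Sh3gl1-/-); red marks an adjusted p under 0.05. All genotype intervals cross 0, whereas both genes are lower after CD40L in WT cells and Sh3glb1 is higher in follicular than in transitional WT cells.

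After CD40L, WT follicular cells had more Sh3gl1 and less of both endophilin B genes. Sh3gl1 rose from 34.2, 35.1 and 33.6 CPM to 57.8, 53.5 and 56.7 CPM, which is 0.68 on the log2 scale (SE 0.18, edgeR adjusted p = 0.0061). Sh3glb1 fell from 75.7, 60.1 and 68.6 CPM to 51.2, 37.6 and 35.9 CPM, or -0.74 in log2 (SE 0.17, adjusted p = 0.0023). Sh3glb2 fell from 24.2, 19.9 and 25.2 CPM to 18.9, 15.4 and 15.1 CPM, or -0.52 in log2 (SE 0.15, adjusted p = 0.012). For each of the 3 genes the cultured and ex vivo libraries did not overlap. Much of the transcriptome differed after the culture with CD40L, with 49.3% of genes past the threshold, so 3 of 3 members passing is to be read against that share. The Sh3glb2 call was lost without follicular WT replicate 3 (-0.45, adjusted p = 0.055) or without CD40L WT replicate 3 (-0.44, adjusted p = 0.056). On the TPM scale the changes were 1.43-fold for Sh3gl1, 0.574-fold for Sh3glb1 and 0.623-fold for Sh3glb2, against 1.63, 0.610 and 0.712 in mean CPM.

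In Sh3gl1-/- follicular cells the endophilin B genes lay in the same direction after CD40L but did not pass. Sh3glb1 went from 62.3, 52.3 and 64.5 CPM to 46.5, 52.7 and 36.2 CPM (log2 fold change -0.42, SE 0.17, edgeR adjusted p = 0.057), with CD40L replicate 2 just above the lowest ex vivo library. Sh3glb2 went from 21.7, 18.9 and 21.5 CPM to 16.2, 18.8 and 19.0 CPM (-0.22, SE 0.15, adjusted p = 0.28), with overlap. The Sh3glb1 value stood at the threshold: DESeq2 gave an adjusted p of 0.044, and without CD40L Sh3gl1-/- replicate 2 the log2 fold change was -0.54 (adjusted p = 0.032). It also passed without CD40L WT replicate 1, at -0.41 (adjusted p = 0.031).

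Whether the responses differ between genotypes was tested directly. The response of Sh3gl1-/- minus that of WT cells was 0.32 for Sh3glb1 (log2, 95% interval -0.19 to 0.83, adjusted p = 0.73) and 0.30 for Sh3glb2 (-0.17 to 0.76, adjusted p = 0.72). No difference between genotypes was thus detected, though the intervals reach a clearly weaker fall in the knockout. Across all genes edgeR called 0 differences, or 0% (1278 genes at an unadjusted p under 0.05, and 37 calls by DESeq2).

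From transitional to follicular WT cells Sh3glb1 was the member that moved. It was 46.6, 55.0 and 53.3 CPM in transitional and 75.7, 60.1 and 68.6 CPM in follicular cells, with no overlap, a log2 difference of 0.41 (with an SE of 0.11, edgeR adjusted p = 0.016). In this comparison 25.9% of genes passed. The call was lost without transitional WT replicate 1 (0.34, adjusted p = 0.065), without follicular WT replicate 1 (0.32, adjusted p = 0.080) and when all 18 libraries entered the fit (0.40, adjusted p = 0.071). Sh3glb2 gave 0.17 (SE 0.13, adjusted p = 0.37), and Sh3gl1 -0.02 (SE 0.17, 95% interval -0.39 to 0.35, adjusted p = 0.95).

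In Sh3gl1-/- cells the same step left Sh3glb1 at 0.07 (SE 0.11, adjusted p = 0.77) and Sh3glb2 at 0.09 (SE 0.13, adjusted p = 0.75), in edgeR tests where 10.4% of genes passed. Sh3glb1 stood at 55.4, 59.5 and 54.2 CPM in transitional and 62.3, 52.3 and 64.5 CPM in follicular Sh3gl1-/- libraries, which overlapped. Tested directly, the step in Sh3gl1-/- minus that in WT cells was -0.34 for Sh3glb1 (log2, 95% interval -0.67 to 0.00092, unadjusted p = 0.051, edgeR adjusted p = 0.37). For Sh3glb2 it was -0.08 (adjusted p = 0.90). Only 0.0686% of genes passed this test, and neither endophilin B gene was among them.

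Genes whose pattern was most like each member were found by Pearson correlation of log2 CPM, as a description of libraries that share their groups. Over the 9 WT libraries Sh3gl1 was most like Nqo1 (r = 0.991), Eef2kmt (0.986) and Tmem120b (0.984), and both endophilin B genes had an r of -0.73 with it. Nqo1 and Tmem120b were low ex vivo, at 0.239 and 0.400 CPM on average in follicular WT cells, and stood at 9.53 and 7.02 CPM after CD40L. Eef2kmt was at the level of Sh3gl1, with 36.7 CPM ex vivo and 57.7 CPM after CD40L. Over all 18 libraries Sh3glb1 was most like Fbxl14 (0.948), Dnajc5 (0.938) and Csnk1g3 (0.933). Sh3glb2 was most like Nudt4 (0.853), Gm26882 (0.844) and Eya2 (0.835). Eya2 lay at or near the floor, with at most 1.43 CPM in any library and 0 in all CD40L-cultured WT libraries, so its r rests largely on values near 0. Between Sh3glb1 and Sh3glb2 r was 0.794, and 34 of 15063 genes were closer to Sh3glb2 than Sh3glb1 was. In likeness to Sh3glb1, Sh3glb2 was only at rank 581.

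Partners of endophilin A in endocytosis and signalling were followed as a list of 29 genes, of which 24 passed the filter on counts in transitional cells. There 0 were called higher and 1 lower in Sh3gl1-/- cells, 4.17% against 3.73% of all genes. That gene was Cblb, a ubiquitin ligase that restrains lymphocyte signalling, at 51.4 ± 6.22 against 73.9 ± 2.02 CPM in WT (SD, n = 3; log2 fold change -0.52, SE 0.11, edgeR adjusted p = 0.034). In follicular and in CD40L-cultured cells 0 of 23 were called by edgeR (6 and 2 at an unadjusted p under 0.05, 3 and 0 by DESeq2), and 1 in follicular cells without follicular WT replicate 3. Averaged over the states 4 of 24 were called, 16.7% against 3.83% of all genes, all lower: Cblb (-0.49, SE 0.09, adjusted p = 0.0031), the synaptojanin Synj2 (-0.93, SE 0.21, adjusted p = 0.014), the GTPase Cdc42 (-0.18, SE 0.04, adjusted p = 0.014) and the scaffold Itsn1 (-0.36, SE 0.10, adjusted p = 0.045). Synj2 was low throughout, at group means of 2.06 to 5.20 CPM. Itsn1 was not lower in transitional cells (log2 fold change 0.10, 8.17 against 7.66 CPM in WT, with overlap). With counts summed by genotype and number 0 of 24 passed, and 111 genes in all.

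Of the partners, 8 were chosen by name for their known roles: Dnm2, the dynamin of most tissues, the synaptojanin Synj1, the scaffold Itsn2, the ESCRT-associated protein Pdcd6ip (Alix), the receptor adaptors Grb2 and Blnk, the ubiquitin ligase Cbl and its adaptor Sh3kbp1 (CIN85). None of the 8 was called between genotypes in any state or on average. Their averaged log2 differences ran from -0.14 for Blnk (SE 0.06, edgeR adjusted p = 0.22) to 0.21 for Grb2 (SE 0.09, adjusted p = 0.22).

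Partners of endophilin B, 15 genes of apoptosis, autophagy and mitochondria, held 14 that could be tested. In transitional cells 1 of 14, or 7.14% against 3.73% of all genes, was called lower, Rubcn, an inhibitor of autophagosome maturation (158 ± 22.6 against 218 ± 3.06 CPM; log2 fold change -0.46, SE 0.11, edgeR adjusted p = 0.0497). In the other states and on average 0 of 14 were called by edgeR or DESeq2 (0, 1 and 3 at an unadjusted p under 0.05), and on average 1 without transitional WT replicate 3. Bax, the partner of endophilin B1 at the outer mitochondrial membrane, was 0.03 on the averaged log2 scale (SE 0.08, adjusted p = 0.86). Map1lc3b, which coats autophagosomes, was 0.04 (SE 0.05, adjusted p = 0.68).

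Other genes with a BAR domain numbered 65, of which 64 matched a symbol and 54 were tested in transitional cells. There 3 were called, 5.56% against 3.73% of all genes. The 2 that were higher in Sh3gl1-/- cells were the sorting nexin Snx5 (log2 fold change 0.51, SE 0.09, edgeR adjusted p = 0.026) and the endosomal adaptor Appl2 (1.16, SE 0.24, adjusted p = 0.036). Trip10, an F-BAR protein that binds Cdc42, was called lower (-1.74, SE 0.36, adjusted p = 0.036), from a low level of 4.38 CPM in WT to 1.302 CPM. In follicular and CD40L-cultured cells 0 were called by edgeR (8 and 6 at an unadjusted p under 0.05, 1 in each by DESeq2), and 1 in follicular cells without follicular WT replicate 3. On average 4 of 56 were called, 7.14% against 3.83% of all genes. Appl2 (0.69, SE 0.12, adjusted p = 0.0022), Arhgap17 (0.47, SE 0.07, adjusted p = 0.00049) and Snx5 (0.33, SE 0.06, adjusted p = 0.0050) were higher, and Arhgap26 (GRAF) was lower (-0.30, SE 0.08, adjusted p = 0.048). Without CD40L WT replicate 1 there were 9 calls, and with summed counts 1.

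The calls of these lists in transitional cells were lost without any of several libraries. Without transitional WT replicate 1 or 2, or without transitional Sh3gl1-/- replicate 1 or 3, 0 genes of each list passed, and for the partners of endophilin A also 0 without transitional WT replicate 3. Calls over all genes fell too, from 514 to 216, 51, 56 and 28 without the first 4 of these libraries in that order and to 284 without the last. With the replicate block 0 genes passed in each list, and DESeq2 called 3, 2 and 7. The median log2 difference was -0.05 for partners of endophilin A, -0.03 for partners of endophilin B and -0.03 for the other BAR genes, against 0.02 for all genes tested.

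After CD40L in WT cells 9 of 24 partners of endophilin A were called, 37.5% against 49.3% of all genes, 4 of them higher and 5 lower, with a median log2 change of -0.23 against -0.08 for all genes. The scaffold Itsn1 rose most (2.06, SE 0.17, edgeR adjusted p = 4.9e-07), followed by the N-BAR protein Bin1 (0.62, SE 0.16, adjusted p = 0.0050). Its relative Itsn2 fell (-1.13, SE 0.12, adjusted p = 3.9e-06), as did Sh3kbp1 (-0.88, SE 0.10, adjusted p = 6.2e-06). Dnm2 was -0.28 (SE 0.16, adjusted p = 0.17) and Synj1 -0.26 (SE 0.19, adjusted p = 0.27). In CPM, Itsn1 went from 9.32 ± 1.88 to 39.6 ± 4.56 and Itsn2 from 222 ± 7.85 to 104 ± 15.6 (SD, n = 3).

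Of the partners of endophilin B 5 of 14 were called in WT cells, 35.7% against 49.3% of all genes, 3 higher and 2 lower. The LC3 relative Gabarapl1 rose (1.99, SE 0.21, edgeR adjusted p = 4.4e-06) and so did Bax (0.66, SE 0.15, adjusted p = 0.0021). Atg9a, the membrane protein of autophagy vesicles, fell (-1.54, SE 0.28, adjusted p = 0.00040), and Map1lc3b fell less (-0.22, SE 0.08, adjusted p = 0.036). Of the other BAR-domain genes 39 of 53 were called, 73.6% against 49.3% of all genes, 12 higher and 27 lower, with a median of -0.69. Gas7 rose (1.87, SE 0.34, adjusted p = 0.00046) and the kinase Fes fell (-3.19, SE 0.43, adjusted p = 3.2e-05), as did Baiap2l1 (-2.17, SE 0.48, adjusted p = 0.0020). Nostrin was also called, from 0.112 CPM, below the floor of 3 counts, to 1.17 CPM.

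In Sh3gl1-/- cells, where 42.4% of all genes were called after CD40L, so were 9 of 24 partners of endophilin A (37.5%, 4 higher and 5 lower), 7 of 14 partners of endophilin B (50%, 6 higher and 1 lower) and 34 of 53 other BAR-domain genes (64.2%, 13 higher and 21 lower). Without CD40L Sh3gl1-/- replicate 3 the first count was 5, and the second was 4 or 3 without follicular Sh3gl1-/- replicate 1 or 3. By the direct test of the difference between genotypes edgeR and DESeq2 called 0 genes of each list (0, 1 and 9 at an unadjusted p under 0.05). From transitional to follicular WT cells 9 of 24 (37.5%), 8 of 14 (57.1%) and 16 of 55 (29.1%) were called, against 25.9% of all genes. The first count was 4 without transitional WT replicate 2, 2 without follicular WT replicate 1 and 5 without follicular WT replicate 2. The second was 3, 4, 2 and 3 without transitional WT replicate 1 or 2 or follicular WT replicate 1 or 3, in that order.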

How the data were processed

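The authors prepared polyA RNA from sorted splenic B cells and deposited, for each gene and library, an expected count, a TPM value and an FPKM value. The submitters' processing notes name cutadapt 1.9.1, STAR 2.5.2a, RSEM 1.3.0 and GRCm38, while the study's methods name other tools and another library kit than the labels. Expected counts as deposited are RSEM's estimates of reads per gene; they were rounded, since 10.3% to 11.6% of them per library were not whole. TPM values as deposited by the authors are scaled for length and library, and FPKM values as deposited served only to derive the effective length. All 54 value columns were used and 0 left out.

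The members and lists were chosen with earlier results of these data known. Symbols were found for 51633 of 51912 identifiers. Levels between genes are in TPM, and levels between groups are in TPM or in CPM scaled by TMM factors, as stated with each. Differences were tested with the quasi-likelihood test of edgeR 4.0.16 (R 4.3.3) on the rounded counts of genes passing filterByExpr, each genotype comparison within its own 6 libraries, with Benjamini-Hochberg adjustment over all genes tested and a threshold of 0.05. SE and 95% intervals come from that fit. Ratios and sums used exact two-sided permutation tests over libraries (SciPy 1.17.1). Count ratios have exact Clopper-Pearson intervals. Likeness used log2 CPM with a prior count of 2. Named genes were the 5 members, 8 chosen partners, the list genes called between genotypes, the most changed list genes after CD40L and the 3 genes most like each member. The statistics were tested on simulated data. DESeq2 1.42.0, other filters and scalings, replicate blocks and leaving out each library were alternatives.

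Same-numbered libraries of a genotype correlated above 0.1 in all 3 pairs for transitional and follicular WT (0.102 to 0.245), follicular and CD40L WT (0.139 to 0.225) and transitional and follicular Sh3gl1-/- libraries (0.113 to 0.262), but not for follicular and CD40L Sh3gl1-/- libraries (0.0301 to 0.120) or between genotypes. Promoters were read from RefSeq for all 3 detected members.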

Additional observations from a re-analysis of the deposited data

Results flagged for a closer look

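The genotype difference of Sh3glb1 had opposite signs in the 2 ex vivo states. It was 0.128 on the log2 scale in transitional cells, where every Sh3gl1-/- library lay above the WT mean in CPM. In follicular cells it was -0.192, and every Sh3gl1-/- library lay below the WT mean. The genotypes overlapped in CPM in both states. In TPM, transitional Sh3gl1-/- replicate 3 (18.2) lay below the WT mean (20.8). Tested as the difference between genotypes in the transitional to follicular step, the Sh3glb1 value was -0.34 (edgeR, unadjusted p = 0.051, adjusted p = 0.37), which does not pass the threshold. Summed plasma-cell, erythroid and dendritic-cell transcripts were higher, without overlap, in the transitional Sh3gl1-/- libraries. So were Cd3d, Cd3e, Cd3g, Cd4, Cd28, S100a8 and S100a9 as single genes, while Lck was lower and the T-cell and neutrophil and monocyte sums overlapped. Summed T-cell, plasma-cell and neutrophil and monocyte transcripts were higher in the follicular Sh3gl1-/- libraries, also without overlap. Most of each plasma-cell sum was Jchain, while Sdc1 and Prdm1 overlapped between genotypes in both states. The part of such transcripts in the Sh3glb1 values was not tested.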

How the results depend on the processing

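Leaving out 1 library in turn kept the direction and side of the threshold of 340 recomputed values, each being 1 result with 1 library left out. A further 8 were reversed, 4 weaker and 2 stronger. Of the other alternatives 169 kept both, 4 were stronger and 1 weaker. These counts include mean TPM levels and TPM ratios, which are always positive and have no threshold, so they could not change. On the log2 scale the ranges without 1 library were -0.1456 to 0.01152 for the genotype effect on Sh3glb2 in transitional cells, -0.02423 to 0.07656 for that on Sh3glb1 averaged over the states, -0.123 to 0.09534 for Sh3gl1 and 0.3237 to 0.4884 for Sh3glb1 from transitional to follicular WT cells, -0.6363 to -0.4442 for Sh3glb2 after CD40L in WT and -0.5391 to -0.2481 for Sh3glb1 after CD40L in Sh3gl1-/- cells. The averaged Sh3glb1 value was reversed 6 times, at -0.01141 without transitional WT replicate 1, -0.009904 without follicular WT replicate 2, -0.002154 without follicular Sh3gl1-/- replicate 3, -0.004722 and -0.01395 without CD40L WT replicate 2 or 3, and -0.02423 without CD40L Sh3gl1-/- replicate 2. The Sh3glb1 response to CD40L in Sh3gl1-/- cells passed with DESeq2 (-0.4176), with all genes of at least 1 count (-0.4068) and with all 18 libraries (-0.4041), where Sh3glb1 in maturation of WT cells did not pass (0.3997). The genotype difference in the Sh3gl1 response passed with all genes of at least 1 count (2.412, adjusted p = 0.00055). That was 1 of 18 alternatives, and no other passed, nor did the main edgeR test (adjusted p = 0.31). Follicular Sh3gl1-/- libraries held only 1 to 3 Sh3gl1 counts, so this fitted size depends on the prior count and no conclusion is drawn from it. In CPM in place of TPM, added after seeing the data, the endophilin B sum of transitional Sh3gl1-/- against WT cells turned from -3.409% to 4.716%, and the endophilin sum of CD40L against transitional WT cells from -2.897% to 6.346%, both with overlap in CPM. The causes were not tested.

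Numbers of genes called between genotypes moved with the tool and filter. In transitional cells 514 were called, against 1361 by DESeq2, 1426 with all genes of at least 1 count, 90 with the replicate block, 144 with all 18 libraries and 28 to 479 without 1 library. In follicular cells the same order gave 115, 355, 602, 212, 49 and 32 to 112, and after CD40L 3, 79, 216, 21, 82 and 1 to 9. Averaged over the states it was 579, against 1102, 1322, 595 with the block, 397 to 1099 without 1 library and 111 with summed counts. For the difference in maturation it was 10, 365, 462, 20, 0 and 0 to 23, and for that in the CD40L response 0, 37, 210, 0, 0 and 0 to 1. Among the member results recomputed, the replicate block changed no call, with Sh3glb1 at -0.748 after CD40L in WT cells and at 0.4035 in maturation. The step of Sh3gl1 from transitional to follicular Sh3gl1-/- cells, and its difference between genotypes, were not among them. Depth limits Sh3gl2 and Sh3gl3, where a single library cannot show levels under 0.163 to 0.242 CPM.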
